A study of Mus musculus with 2 samples.

Results

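The genes of oxidative phosphorylation were followed through the cell layers of the mouse cornea. Members were chosen by symbol alone: every feature that starts with mt-, and the nuclear families Ndufa, Ndufb, Ndufc, Ndufs, Ndufv, Sdh, Uqcr, Cox4 to Cox8 and Atp5. The rule found 97 of the 27998 features. They were 13 genes of the mitochondrial DNA and 84 nuclear genes, of which 35 were placed with complex I, 4 with complex II, 8 with complex III, 20 with complex IV and 17 with complex V.

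The study took the cornea with its limbal rim from 2 female C57BL/6 littermates of 28 days, 1 wild type and 1 heterozygous for Becn1 (labelled Beclin1 +/-). Becn1 encodes beclin 1, which acts early in autophagy as a partner of a lipid kinase. Lens, retina, iris and trabecular meshwork were taken off and most conjunctiva was cut away, so some conjunctival cells may remain. The tissue was digested with collagenase A and trypsin, and RNA of single cells was counted by unique molecular identifiers (UMIs) with 10x droplets. There was 1 animal and 1 library per genotype, so genotype, animal and library cannot be told apart, no p-value is given, and every interval covers counting error only.

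Oxidative phosphorylation takes electrons from NADH at complex I and from succinate at complex II, passes them through complex III and cytochrome c to complex IV, where oxygen is reduced, and uses the proton gradient built on the way to make ATP at complex V. Complexes I, III, IV and V combine subunits made inside the mitochondrion from mitochondrial DNA with subunits made from nuclear genes and imported, while complex II is nuclear only. The cornea has no blood vessels, and its epithelium, which renews from basal cells and is fed at the periphery by limbal stem cells, is known to rely heavily on glycolysis.

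Some member sequences bear on how the counts can be read, and are shown for that reason. Pairs of mitochondrial genes overlap, so a read at the overlap can belong to either gene. mt-Atp8 and mt-Atp6 share 43 bases and mt-Nd4l and mt-Nd4 share 7 bases, printed in capitals with 10 flanking bases on each side, from the mitochondrial DNA of GRCm38, plus strand, at chrM:7917-7979 and chrM:10157-10183.
mt-Atp8 and mt-Atp6: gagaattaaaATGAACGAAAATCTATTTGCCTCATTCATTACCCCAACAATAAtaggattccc
mt-Nd4l and mt-Nd4: acctactacaATGCTAAaaattattct

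Nuclear members have promoters of their own. RefSeq promoter windows of GRCm38.p6, 250 bases before to 50 after the start, were found for 66 of the 84 nuclear members (71 windows). The motif GCGCANGCG, bound by NRF1, a textbook regulator of nuclear respiratory genes, was in 21 of these 71 windows (29.6%) and in 6.25% of all 32851 windows, on either strand. The ETS motif CCGGAAG was in 22.5% against 8.86%, the YY1 motif ATGGCGGC in 9.86% against 2.24%, and the ERR motif TCAAGGTCA in 2.82% against 0.423%. The NRF1 and YY1 motifs were shortened to these letters after longer forms had been counted, and the shorter forms match more windows, of the members and of all genes. A window was counted once for each motif it held, and matches of different motifs could overlap. The 3 stretches that follow lie before the start of a promoter window, all on the minus strand. Those of Ndufa4 and Ndufs5 are cut where an annotated exon begins, and that of Cox7a2l is not cut. The Cox7a2l stretch lies within the annotated gene (83501918 to 83517330), so it precedes an inner start. Ndufa4 (chr6:11907498-11907550) and Cox7a2l (chr17:83514334-83514433) are the measured members with the highest and the lowest ratio of wing over basal cells. Ndufs5 (chr4:123718203-123718286) is shown for its NRF1 match, in capitals. None of the 4 motifs was in the printed letters of Ndufa4 or Cox7a2l, which says nothing about the factors.
Ndufa4: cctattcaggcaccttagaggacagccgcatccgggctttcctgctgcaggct
Cox7a2l: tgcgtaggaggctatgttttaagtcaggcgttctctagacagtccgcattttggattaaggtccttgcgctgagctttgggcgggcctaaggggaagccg
Ndufs5: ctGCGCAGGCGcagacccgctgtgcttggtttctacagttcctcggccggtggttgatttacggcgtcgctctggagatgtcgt

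The matrices held 2513 wild-type and 5155 heterozygote barcodes with 54913980 and 74363359 UMIs, a median of 16967 and 11571 UMIs per barcode. After doublet removal 2462 and 4942 cells were left, and 15 barcode sequences occurred in both libraries. Becn1 was counted at 30.2 to 47.2 CPM (UMIs of a gene scaled to a common total for each class) over the wild-type classes and at 33.5 to 48.6 CPM over the heterozygote classes. Since no label names the missing part of Becn1, these levels are no check of genotype.

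Cells were sorted into 5 classes by thresholds on CPM in each cell. Limbal cells had at least 500 CPM of Gpha2 and 2000 of Krt14 (230 wild-type and 364 heterozygote cells), basal cells at least 2000 of Krt14 and 8000 of Krt12 (807 and 1438), and wing cells at least 20000 of Krt12 with Krt14 under 2000 (511 and 969). Surface cells had at least 1000 CPM of Lce3a (51 and 114), and stromal cells at least 5000 of Dcn (551 and 1322). Krt15, a limbal keratin that no rule used, was counted at 5144 and 4032 CPM in limbal cells against 797 and 845 CPM in basal cells. It was not confined to limbal cells, with 1668 and 2435 CPM in wing and 650 and 1182 CPM in surface cells. Psca, a superficial marker outside the rules, was counted at 36967 and 33121 CPM in surface cells against 2128 and 2048 CPM in wing cells. The 5 superficial markers summed to 55809 and 57315 CPM in surface cells and 3329 and 3286 CPM in wing cells, with Lce3a, which the surface rule used, at 11489 and 18414 CPM of the surface sum. Of the wild-type limbal cells, 19.6% also met the basal rule, as did 28.0% of the heterozygote limbal cells, and these were kept as limbal. Surface cells also held 2232 and 2305 CPM of summed conjunctival markers, against 888 and 830 CPM in wing cells. Most of that sum was Krt13 (2029 and 1900 CPM), while Krt4 had 17.6 and 128 CPM and the goblet markers Muc5ac and Tff1 had no UMI in surface cells. In limbal cells the same conjunctival markers summed to 963 and 466 CPM, against 142 and 186 CPM in basal cells, with Krt4 at 459 and 236 against 50.7 and 52.7 CPM. All 4 conjunctival markers were higher in limbal than in basal cells of both libraries, while Muc5ac was at 0.239 and 0.219 CPM and Tff1 at 0 in limbal cells. The part of conjunctival cells in the surface and limbal values was not tested. Corneal endothelium markers summed to 241 and 258 CPM in stromal cells, and the mast, vascular, melanocyte, Schwann and red cell lists to at most 11.9 CPM in any class. In limbal cells the endothelium markers summed to 13.6 and 114 CPM, against 18.1 and 23.7 CPM in basal cells. Most of the heterozygote limbal sum was Car3 (2.63 and 76.4 CPM in limbal cells). The part of endothelial cells in these values was not tested.

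Raw UMIs were summed per class and library and scaled to CPM. A gene counted as measured when its mean over the 10 sums was at least 20 CPM, which held for 4337 features and 85 members. Measured members were 11 of the 13 mitochondrial genes, 34 of 35 of complex I, all 4 of complex II, all 8 of complex III, 13 of 20 of complex IV and 15 of 17 of complex V. The 12 members below this level were mt-Atp8 (mean 18.7 CPM), Ndufs1 (12.1), Cox6b2 (5.15), Cox7a1 (4.999), Atp5sl (4.25), Atp5s (3.22), mt-Nd6 (2.80), Cox4i2 (1.44), Cox6a2 (0.449), Cox8c (0.011), and Cox7b2 and Cox8b with no UMI in any class. Atp5s and Atp5sl match the rule by name and are not subunits of ATP synthase. Ndufa4, named as a complex I gene, encodes a subunit of complex IV and was described there with its paralog Ndufa4l2.

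All 97 members together made up 4.61% of wild-type and 4.44% of heterozygote limbal UMIs, 4.05% and 4.14% of basal, 4.24% and 4.08% of wing and 4.07% and 4.10% of stromal UMIs. In surface cells they made up only 1.87% and 2.098%. A mean wing cell held 1235 and 758 member UMIs and a mean surface cell 540 and 428. The median of all UMIs per cell was 29704 and 19923 in surface cells and 23046 and 15467 in wing cells, which is another measure than the mean. The median share of members per cell was 1.81% and 1.93% in surface cells and 4.12% and 4.06% in wing cells.

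The mitochondrial genes, which encode the catalytic cores of complexes I, III and IV and parts of complex V, were highest in limbal cells. Limbal sums were 23536 CPM (wild type) and 21944 CPM (heterozygote). With the wild type given first throughout, the other sums were 17859 and 17831 CPM in basal, 17817 and 15995 CPM in wing, 6809 and 7578 CPM in surface and 20159 and 19677 CPM in stromal cells. Both libraries therefore gave the order limbal, stromal, basal, wing, surface, and basal and wing cells of the wild type had overlapping counting intervals. The UMIs of mitochondrial genes per UMI of nuclear members gave the same order of classes, from 1.05 and 0.976 in limbal cells over 0.984 and 0.921 in stromal, 0.790 and 0.755 in basal and 0.724 and 0.646 in wing cells to 0.574 and 0.566 in surface cells. This ratio is taken within each class, so it does not depend on how libraries are scaled. The classes also differed in depth. Median UMIs per cell were 11643 and 8160.5 in stromal, 14525.5 and 10250.5 in limbal and 17753 and 12046 in basal cells. They were 23046 and 15467 in wing and 29704 and 19923 in surface cells. Apart from the order of limbal and stromal cells, deeper classes had lower ratios, and the part of depth was not tested.

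**Figure D1:**
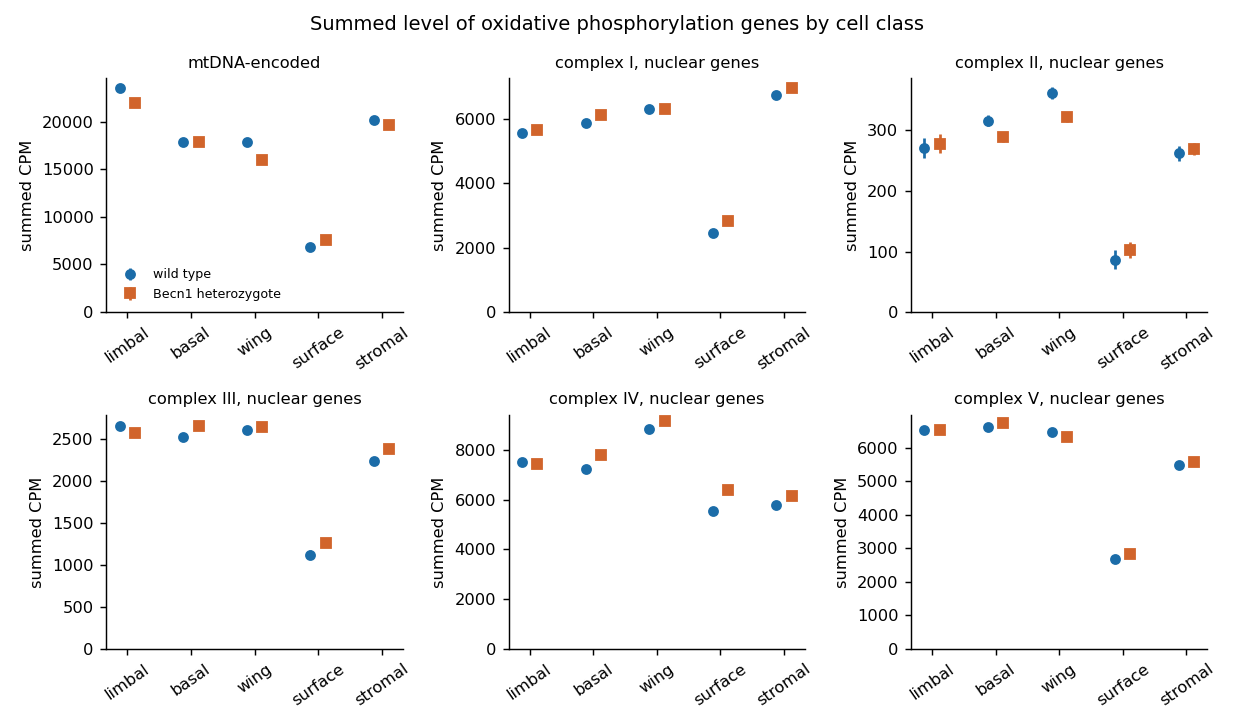
Summed CPM of the members of each gene group (y axis) in the 5 cell classes (x axis) for the wild-type and the heterozygote library, 1 point per library. Surface cells are lowest in both libraries in every panel except complex IV, where the heterozygote stromal sum of 6163 CPM is below the surface sum of 6410 CPM, and the mitochondrial panel is highest in limbal cells. Ndufa4 holds 455 CPM of that stromal sum and 1752 CPM of that surface sum.

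Complex I, the entry of electrons from NADH, had 5556 and 5662 CPM in limbal, 5885 and 6114 in basal, 6317 and 6306 in wing, 2440 and 2816 in surface and 6725 and 6972 in stromal cells. Complex III, which passes electrons from ubiquinol to cytochrome c, had 2649 and 2562 CPM in limbal cells, 2521 and 2648 in basal, 2598 and 2636 in wing, 1121 and 1253 in surface and 2236 and 2383 in stromal cells. Outside surface cells complex III stayed within a narrow range.

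Complex II, which is also the succinate dehydrogenase of the tricarboxylic acid cycle, had 271 and 278 CPM in limbal cells, 316 and 289 in basal, 361 and 321 in wing, 86.1 and 102.4 in surface and 262 and 270 in stromal cells. Complex V, the ATP synthase, had 6533 and 6535 CPM in limbal cells, 6633 and 6739 in basal, 6471 and 6333 in wing, 2677 and 2817 in surface and 5481 and 5582 in stromal cells. Both were lowest in surface cells.

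Complex IV, the cytochrome c oxidase, took another course in its sum. It had 7509 and 7448 CPM in limbal cells, 7251 and 7825 in basal, 8860 and 9177 in wing, 5545 and 6410 in surface and 5788 and 6163 in stromal cells. Its share of the nuclear members' UMIs was 33.3% and 33.1% in limbal, 32.1% and 33.1% in basal, 36.0% and 37.0% in wing, 46.7% and 47.8% in surface and 28.2% and 28.8% in stromal cells. The share of complex I went the other way between these classes, from 32.8% and 32.6% in stromal to 20.6% and 21.02% in surface cells. Ndufa4, counted with complex IV, held 1050 and 1321 CPM of the basal sum and 2551 and 2809 CPM of the wing sum. Most of the difference between the basal and wing sums of complex IV was therefore this gene. In surface and stromal cells Ndufa4 held 1665 and 1752 CPM and 394 and 455 CPM of the sums.

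The first comparison asked how limbal cells differed from basal cells of the cornea. The mitochondrial genes were higher in limbal cells as a group, and nuclear members were not. A gene was called past the fold when it was at least 1.5 times higher, or lower, in both libraries. By this rule 1 of 85 members was higher and 0 lower, against 7.49% of all measured genes higher and 6.29% lower. The 1 member was Ndufa4l2, at 7.42 and 9.88 CPM in limbal against 1.23 and 4.45 CPM in basal cells (31 and 45 against 20 and 91 UMIs). It reached the 20 CPM minimum only through its stromal level, so nothing was read from this call, and of the other 84 members 0 were past the fold.

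All 11 measured mitochondrial genes were higher in limbal than in basal cells in both libraries, without passing 1.5 times in both. The conjunctival marker sum given above was also higher in limbal cells, and its part in this was not tested. The share of all measured genes that were higher in both at any size was 41.4%, and the genes share transcripts and cells, so they are not independent. Their sum was 1.32 times and 1.23 times the basal sum, and the median log2 ratio was 0.37 and 0.30, where the median over all measured genes was near 0 (0.01 and 0.00). With TMM scaling, which lowered all limbal ratios by 0.08 and 0.09, the group median averaged over libraries went from 0.33 to 0.25.

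In the wild type the highest ratios were those of mt-Co1 and mt-Co3 of complex IV, and in the heterozygote, among measured genes, those of mt-Nd4l and mt-Nd5 of complex I. mt-Co1, the catalytic core of complex IV, was counted at 3619 and 3255 CPM in limbal against 2260 and 2435 CPM in basal cells, a log2 ratio of 0.68 (95% interval 0.65 to 0.71) and 0.42 (0.39 to 0.44). mt-Co3 was counted at 4399 and 4229 CPM against 2993 and 3174 CPM (0.56 and 0.41). The smallest ratio in the wild type was that of mt-Nd1, a complex I subunit, at 2123 and 2055 CPM against 1924 and 1798 CPM (0.14 and 0.19), and in the heterozygote that of mt-Nd2 (0.17). For both cytochrome oxidase subunits every limbal value lay above every basal value.

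Among the other mitochondrial genes mt-Nd3 had log2 ratios of 0.46 and 0.42, mt-Nd4l 0.42 and 0.55, mt-Nd5 0.41 and 0.49, mt-Co2 0.37 and 0.30, mt-Atp6 0.36 and 0.25, mt-Nd4 0.32 and 0.22, mt-Nd2 0.26 and 0.17, and mt-Cytb, the core of complex III, 0.22 and 0.23. Of the 2 mitochondrial genes below 20 CPM, mt-Atp8 had -0.03 and 0.46 and mt-Nd6 had 0.14 and 0.37. Over the 13 genes and both libraries, mt-Atp8 in the wild type was the only ratio below 0.

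**Figure D2:**
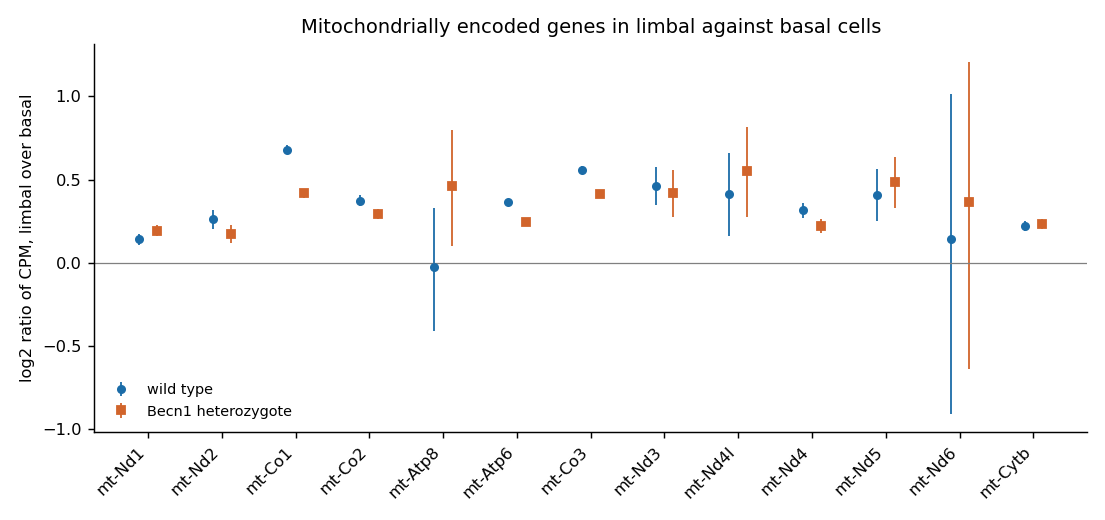
Log2 ratio of limbal over basal CPM (y axis) for the 13 genes of the mitochondrial DNA (x axis), with 95% intervals for counting error, in both libraries. All points lie above 0 except mt-Atp8 in the wild type, and mt-Co1 in the wild type is the furthest at 0.68 among the genes with at least 20 CPM.

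Nuclear subunits showed no common direction between limbal and basal cells, with 23 of 74 higher in both libraries and 37 lower in both (41.4% and 40.4% of all measured genes), and group medians between -0.17 and 0.07. In complex I the ratios ran from Ndufc1 (0.40 and 0.07) to Ndufa8 (-0.56 and -0.43), both supernumerary subunits. In complex II, Sdhc, a membrane anchor, had 0.50 and 0.18 and Sdhb, the iron-sulfur subunit, -0.41 and -0.17. In complex III, Uqcrh, the hinge protein, had 0.30 and 0.12 and Uqcrb -0.13 and -0.23.

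In complex V the alpha subunit Atp5a1 was counted at 345 and 339 CPM in limbal against 285 and 275 CPM in basal cells (0.28 and 0.30), and the central stalk subunit Atp5c1 at 247 and 243 CPM against 292 and 286 CPM (-0.24 and -0.24). Ndufa4 of complex IV was counted at 933 and 969 CPM against 1050 and 1321 CPM (-0.17 and -0.45). For these 3 genes limbal and basal values did not overlap, but none reached 1.5 times.

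The next comparison followed the epithelium from basal to wing cells, the layer above them. The complexes as groups kept nearly the same levels, while 2 members went apart: Ndufa4 was higher and Cox7a2l lower in wing cells. Past the fold were 1 of 85 members higher and 1 lower, against 15.4% of all measured genes higher and 12.8% lower. Group medians were between -0.19 and 0.17 in both libraries.

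Ndufa4 (chromosome 6, 11900292 to 11907497, minus strand) was counted at 1050 and 1321 CPM in basal and 2551 and 2809 CPM in wing cells, a log2 ratio of 1.28 (1.25 to 1.31) and 1.09 (1.07 to 1.11). At 1665 and 1752 CPM in surface cells it was below wing cells but above all basal, limbal (933 and 969 CPM) and stromal values (394 and 455 CPM). Every wild-type and every heterozygote class held the same order, wing, surface, basal, limbal, stromal. No exon of another counted gene overlapped it.

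Cox7a2l (chromosome 17, 83501918 to 83517330, minus strand) encodes a protein known to help join complexes III and IV into supercomplexes, which were not measured here. It was counted at 639 and 708 CPM in limbal, 668 and 684 CPM in basal, 432 and 404 CPM in wing, 64.4 and 79.6 CPM in surface and 293 and 325 CPM in stromal cells. The log2 ratio of wing over basal was -0.63 (-0.67 to -0.59) and -0.76 (-0.80 to -0.72). Limbal and basal values overlapped, and each further layer of the epithelium was lower in both libraries.

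Within complex IV other subunits moved less between basal and wing cells. Cox4i1, the common form of subunit 4, had 1147 and 1206 CPM in basal and 899 and 926 CPM in wing cells (-0.35 and -0.38), and Cox6b1 had 578 and 607 against 736 and 772 CPM (0.35 and 0.35). Cox6a1 (0.17 and 0.23), Cox7b (0.10 and 0.09), Cox7a2 (0.08 and 0.03) and Cox8a (0.17 and 0.03) were nearly level, and with CPM taken without mitochondrial, ribosomal and rule genes the averages of Cox7b (-0.04), Cox7a2 (-0.09) and Cox8a (-0.04) were below 0.

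Apart from Ndufa4l2 in stromal cells, described with the fourth comparison, tissue-specific forms of complex IV subunits were rare. Cox7a1, the form known from heart and skeletal muscle, had 3.45 and 2.93 CPM in basal and 10.2 and 7.16 CPM in wing cells, a log2 ratio of 1.56 (1.12 to 2.04) and 1.28 (0.84 to 1.75). It was seen in 6.32% and 4.10% of basal and 23.5% and 12.1% of wing cells, and with every cell thinned to 5000 UMIs in 1.73% and 1.04% against 5.09% and 4.33%. Its stromal share, a background guide, was 3.45% and 1.66% unthinned and 2.18% and 0.832% thinned. Surface shares were 23.5% and 11.4%, and 9.80% and 2.63% thinned. The thinned wing shares and the wild-type surface share lay above both stromal shares by more than 1 percentage point, while the heterozygote surface share was close to the wild-type stromal one and was not read as expression. The median depth was 11643 and 8161 UMIs in stromal cells, against 23046 and 15467 in wing cells.

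Cox6b2, known from testis, had 5.11 and 6.20 CPM in basal and 2.89 and 1.94 CPM in wing cells. Cox8c was at 0.0616 and 0.0488 CPM in basal cells, which is 1 UMI per library, and at 0 in every other class. Cox7b2 and Cox8b had no UMI, which allows up to 3 UMIs per class and library.

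**Figure D3:**
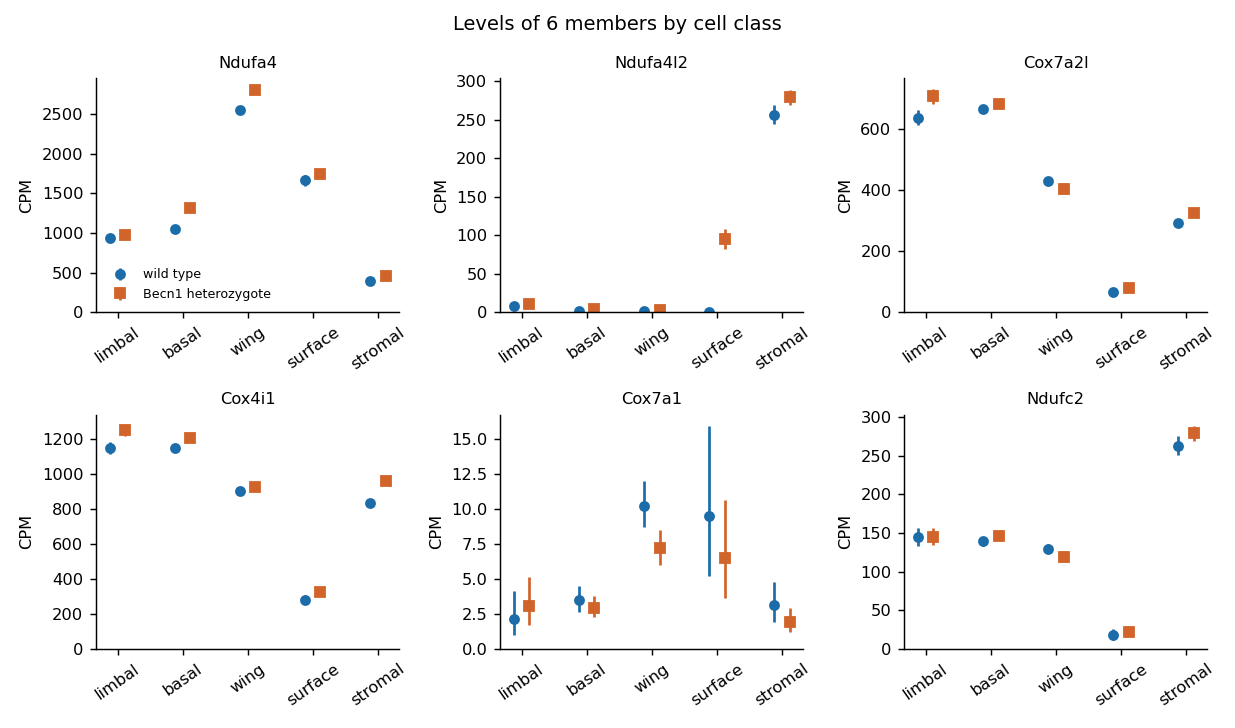
CPM (y axis) of Ndufa4, Ndufa4l2, Cox7a2l, Cox4i1, Cox7a1 and Ndufc2 in the 5 cell classes (x axis), with 95% Poisson intervals, in both libraries. Ndufa4 peaks in wing cells at 2551 and 2809 CPM, while Cox7a2l and Ndufc2 are lowest in surface cells; the heterozygote surface value of Ndufa4l2, 94.6 CPM, comes almost wholly from 1 cell.

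In complex I the highest ratio of wing over basal was that of Ndufv3, a small subunit of the NADH-binding module, at 114 and 131 against 181 and 197 CPM (0.67 and 0.58, the latter just under 1.5 times). In complex II, Sdhb was highest (0.29 and 0.26) and Sdhd, the other membrane anchor, lowest on average (0.13 and -0.24, of opposite sign in the libraries).

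In complex III, Uqcrb had 0.25 and 0.25 and Uqcrfs1, the Rieske iron-sulfur protein, -0.32 and -0.27. In complex V, Atp5k, a small membrane subunit, had 0.42 and 0.26 and Atp5a1 -0.43 and -0.45. The c-ring genes, which encode the same mature protein, differed in course: Atp5g1 had -0.27 and -0.32, Atp5g2 -0.28 and -0.46 and Atp5g3 0.06 and -0.03. TMM scaling moved all wing ratios by -0.13 and 0.03, and CPM without mitochondrial, ribosomal and rule genes by -0.12 and -0.16. The averages of the genes of complexes I, II, III and V named here held their sign under both, except that of Atp5g3 (0.01), which became -0.04 and -0.13.

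The third comparison set surface cells, the outermost and most differentiated, against wing cells. Most members were lower in surface cells, as were most genes, and complex IV subunits were lowered least. Past the fold were 72 of 85 members lower and 0 higher, against 69.5% of all measured genes lower and 10.7% higher. Lower were 9 of 11 mitochondrial genes, 30 of 34 of complex I, 4 of 4 of complex II, 8 of 8 of complex III, 6 of 13 of complex IV and 15 of 15 of complex V.

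The median log2 ratio over all measured genes was -1.69 and -1.55, so a lower CPM was the rule in these cells. Group medians were -1.38 and -1.20 for mitochondrial genes, -1.65 and -1.39 for complex I, -1.98 and -1.62 for complex II, -1.30 and -1.17 for complex III, -0.62 and -0.44 for complex IV and -1.24 and -1.16 for complex V. Without Ndufa4l2, whose heterozygote surface value comes from 1 cell, complex IV had -0.62 and -0.56. TMM scaling raised every ratio by 1.45 and 1.40. On that scale 13 members were past the fold higher and 10 lower, and the medians averaged over libraries of mitochondrial genes (0.14), complex III (0.19), complex IV (0.90) and complex V (0.22) were above 0, while complexes I (-0.10) and II (-0.38) stayed below. A direction for surface cells is therefore fixed by the scaling, but the order of the groups is not, since a scaling moves all genes alike.

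Relative to the median of all genes, 52 of 85 members were above it in both libraries, 11 of them from the 13 of complex IV, against 45.2% of all measured genes. That reference depends on the minimum level of the genes. It was -1.43 and -1.31 with a minimum of 50 CPM and -1.94 and -1.80 with 5 CPM. The median of the 85 members was -1.40 and -1.19, close to the reference at 50 CPM. Cox8a was counted at 797 and 824 CPM in wing and 710 and 904 CPM in surface cells (-0.17 and 0.13). Cox5a, which binds the matrix side of the catalytic core, was counted at 439 and 504 against 412 and 507 CPM (-0.09 and 0.01), and Cox6b1 at 736 and 772 against 633 and 742 CPM (-0.22 and -0.06). These 3 subunits had nearly the same CPM in both layers.

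Other complex IV genes did not. Cox4i1 was counted at 899 and 926 CPM in wing and 281 and 322 CPM in surface cells (-1.67 and -1.52), and Cox7a2l at 432 and 404 against 64.4 and 79.6 CPM (-2.74 and -2.34). mt-Co1, the catalytic core, had 2964 and 2952 against 1951 and 2249 CPM (-0.60 and -0.39). The members placed with complex IV thus spread from nearly level to 6.67-fold and 5.07-fold lower. The furthest was Cox7a2l, listed as a supercomplex factor and not as a structural subunit.

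In complex I the member nearest to level was Ndufs4, an accessory subunit, at 182 and 191 against 174 and 175 CPM (-0.06 and -0.12). Ndufc2, a membrane arm subunit, was counted at 130 and 119 against 17.6 and 21.9 CPM (-2.85 and -2.42). In complex II, Sdhc had -1.31 and -0.71 and Sdhd -2.61 and -1.90.

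In complex III, Uqcrb had -0.87 and -0.75 and Uqcrfs1 -1.41 and -1.68. In complex V, Atp5j2 was counted at 546 and 553 against 292 and 297 CPM (-0.90 and -0.90) and Atp5a1 at 211 and 202 against 31.2 and 28.4 CPM (-2.74 and -2.82). Among mitochondrial genes mt-Nd5 was the nearest to level (-0.42 and 0.02) and mt-Nd1 among the lowest (1546 and 1243 against 286 and 341 CPM, -2.43 and -1.86). With TMM scaling the averages of Sdhc (0.41), Uqcrb (0.62) and Atp5j2 (0.52) were above 0.

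**Figure D4:**
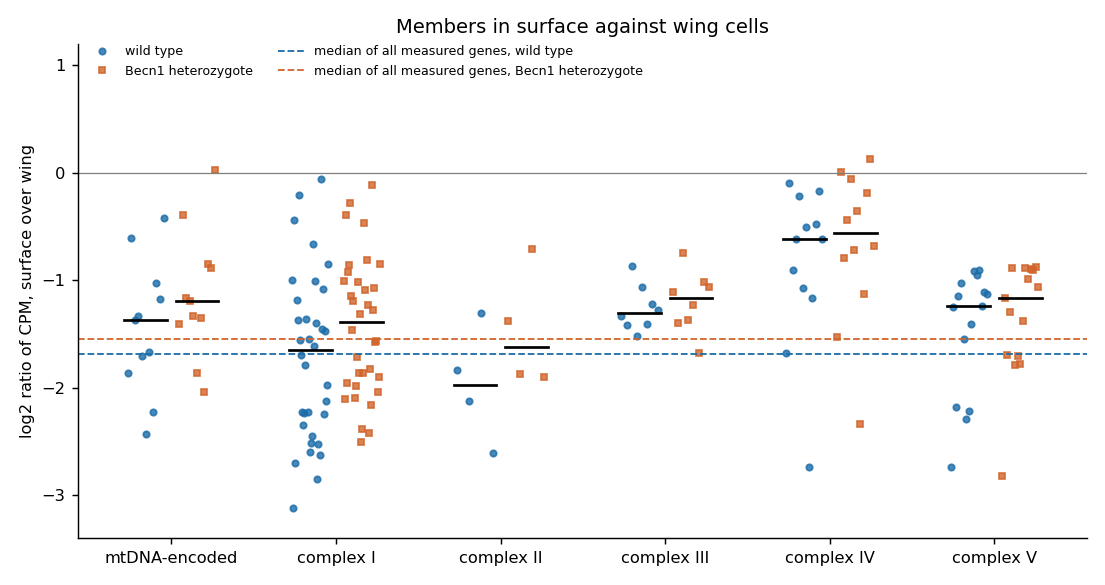
Log2 ratio of surface over wing CPM for 84 measured members (points; Ndufa4l2 is left out), by gene group (x axis) and library. Black bars are group medians and dashed lines the medians of all measured genes at -1.69 and -1.55; complex IV sits highest, with medians of -0.62 and -0.56 without Ndufa4l2.

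For members with the NRF1 motif in a promoter window the course was close to that of the others. The 20 measured members with a match had a median surface over wing ratio, averaged over libraries, of -1.402, and the 42 without one had -1.22. Surface cells were few, 51 and 114, and met a rule on 1 gene. Psca and the conjunctival marker sum given above moved with this comparison, and their part in it was not tested.

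The fourth comparison set stromal cells against basal epithelial cells. Summed stromal markers were at 79706 and 74923 CPM against 188 and 243 CPM, with Dcn, which the stromal rule used, at 27536 and 28469 CPM of the stromal sum, and Col1a1, which no rule used, was at 22638 and 19600 against 53.0 and 64.6 CPM. Ndufa4 was lower in the stroma and its paralog Ndufa4l2 higher, and mt-Nd3, mt-Nd4l and mt-Nd5 were higher. Past the fold were 10 of 85 members higher and 10 lower, against 24.4% of all measured genes higher and 30.8% lower. By group, 3 of 11 mitochondrial genes were higher and 0 lower, 5 of 34 of complex I higher and 2 lower, 2 of 13 of complex IV higher and 3 lower, 2 of 8 of complex III lower and 3 of 15 of complex V lower. The 5 of complex I are 14.7% and the 3 mitochondrial genes 27.3% of their group, below and near the share of all measured genes. Ndufa4l2 reached the minimum only through its stromal level, so its stromal call was bound to follow, and without it 9 of 84 members were higher.

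Of the mitochondrial genes, mt-Nd4l had 32.7 and 23.0 CPM in basal and 105 and 86.0 CPM in stromal cells, a log2 ratio of 1.68 (1.52 to 1.85) and 1.91 (1.75 to 2.07). mt-Nd5 had 79.2 and 71.7 against 178 and 163 CPM (1.17 and 1.19), and mt-Nd3 147 and 90.9 against 266 and 187 CPM (0.86 and 1.04). These 3 encode complex I subunits, but mt-Nd1 of the same complex had 0.06 and 0.14. mt-Co1 (-0.05 and -0.18), mt-Co2 (0.02 and -0.03) and mt-Co3 (0.14 and 0.05) of complex IV were nearly level. Below the 20 CPM minimum, mt-Atp8 of complex V had 19.1 and 14.6 against 40.2 and 27.5 CPM (1.07 and 0.92), and mt-Nd6 had 1.21 and 1.18.

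Among nuclear complex I genes Ndufa13, also known as GRIM-19, had 220 and 245 CPM in basal and 461 and 514 CPM in stromal cells (1.07 and 1.07). Its exons overlap Tssk6 on the other strand. Ndufc1 had 159 and 180 against 330 and 324 CPM (1.05 and 0.85), Ndufa1 156 and 139 against 308 and 267 CPM (0.98 and 0.95), Ndufc2 139 and 147 against 263 and 279 CPM (0.92 and 0.93) and Ndufa2 294 and 309 against 487 and 500 CPM (0.73 and 0.69). All 5 are accessory subunits, as are most nuclear members of complex I and the 2 that were lower.

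Lower in the stroma were Ndufs4 (-0.79 and -0.75) and Ndufa10 (-0.74 and -0.63) of complex I, Uqcrc1 (-1.16 and -0.98) and Uqcrfs1 (-0.76 and -0.76) of complex III, and Atp5g2 (-1.23 and -1.12), Atp5d (-0.66 and -0.62) and Atp5b (-0.60 and -0.61) of complex V. Of complex IV, Cox7a2l (-1.19 and -1.07) and Cox6b1 (-0.61 and -0.61) were lower and Cox7c (0.72 and 0.63) higher. Atp5g2, a c-ring gene, had 631 and 640 CPM in basal and 269 and 294 CPM in stromal cells, while its paralog Atp5g1 was level (-0.07 and -0.06). In complex II, Sdhc had 0.59 and 0.57, the latter just under 1.5 times. With TMM scaling all stromal ratios dropped by 0.30 and 0.25, and 23 members were past the fold lower.

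Ndufa4 and Ndufa4l2 had the lowest and the highest stromal ratio of the measured members. Ndufa4 had 1050 and 1321 CPM in basal and 394 and 455 CPM in stromal cells, a log2 ratio of -1.41 (-1.47 to -1.36) and -1.54 (-1.58 to -1.49). Ndufa4l2 (chromosome 10, 127514967 to 127517154, plus strand), known as a gene induced by low oxygen, had 1.23 and 4.45 CPM in basal and 256 and 279 CPM in stromal cells (7.67 and 5.97). It was seen in 60.3% and 53.9% of stromal and 2.48% and 4.17% of basal cells, and after thinning to 5000 UMIs in 45.7% and 45.9% against 1.12% and 1.74%. The basal share lay near the level that 1 UMI per cell gives and was not read as expression.

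The exons of Ndufa4l2 overlap Shmt2 on the other strand, and whether counting used strand is not given in the sources used here. Shmt2 itself had 31.1 and 33.4 CPM in stromal and 23.2 and 21.3 CPM in basal cells, far below the stromal Ndufa4l2 level. Cox4i2, the form of subunit 4 known from lung and from low oxygen, had 38 and 90 UMIs in 29 and 68 stromal cells, and Cox6a2, a muscle form, had 16 and 24 UMIs in the stroma and 0 in all 4 epithelial classes. Stromal cells also held 29.2 and 19.9 CPM of summed pericyte or muscle markers and 91.0 and 36.7 CPM of immune markers. Acta2 made up most of the former (28.4 and 19.7 CPM), Myh11, Ptprc and Cd3e were at 0 there, and the part of such cells in these values was not tested.

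The last comparison set the heterozygote against the wild-type library within each class. Most members differed little, and the clearest difference was a lower mt-Nd3 and mt-Nd4l in the heterozygote library. Called here were values at least 1.25 times apart. In limbal cells 1 member was higher and 4 lower (8.53% and 8.09% of all measured genes), in basal cells 2 and 2 (7.91% and 3.71%), in wing cells 1 and 5 (4.93% and 12.1%), in surface cells 18 and 3 (28.2% and 21.9%) and in stromal cells 0 and 3 (9.06% and 5.86%). The wild-type cells were deeper in every class.

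mt-Nd3, a subunit of the membrane arm of complex I (mitochondrial DNA 9459 to 9806), had 202 and 121 CPM in limbal cells, 147 and 90.9 in basal, 119 and 57.6 in wing, 25.1 and 13.8 in surface and 266 and 187 in stromal cells. The log2 ratios of heterozygote over wild type were -0.74 (-0.89 to -0.58), -0.69 (-0.78 to -0.61), -1.05 (-1.16 to -0.93), -0.86 (-1.60 to -0.14) and -0.51 (-0.60 to -0.41). It was lower in all 5 classes.

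mt-Nd4l, at 9877 to 10173 in the mitochondrial DNA, had log2 ratios of -0.38, -0.51, -0.73, -0.44 and -0.29 in the same order of classes, past 1.25 times in all but the stroma. Its surface interval ran from -1.27 to 0.42. Its neighbour mt-Nd4, from the same messenger, had -0.17, -0.08, -0.19, -0.01 and -0.09. mt-Nd3 and mt-Nd4l were the only members of 85 that were 1.25 times lower in at least 4 classes (1.01% of all measured genes), and Ndufa4l2 was the only one higher in at least 4 (1.15%), by low epithelial counts and the 1 surface cell described in the closing section.

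Among nuclear members Atp5k had 220 and 158 CPM in limbal, 207 and 171 in basal, 276 and 204 in wing, 117 and 109 in surface and 235 and 181 in stromal cells, lower in the heterozygote throughout (-0.47, -0.28, -0.43, -0.10 and -0.38). Ndufa3 had -0.26, -0.30, -0.27, -0.34 and -0.43 and Ndufa1 -0.24, -0.17, -0.26, -0.27 and -0.20. Cox5a was higher throughout, from 308 and 384 CPM in limbal to 243 and 282 CPM in stromal cells (0.32, 0.20, 0.20, 0.30 and 0.21). Ndufa4 had 0.06, 0.33, 0.14, 0.07 and 0.21.

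**Figure D5:**
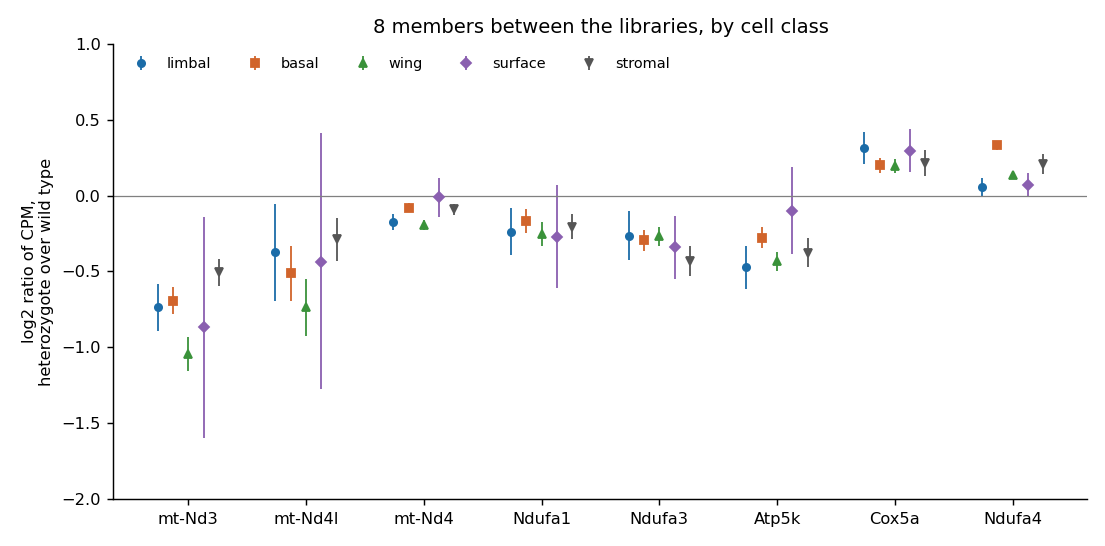
Log2 ratio of heterozygote over wild-type CPM (y axis) for 8 members in the 5 cell classes. mt-Nd3 lies between -1.05 and -0.51 and mt-Nd4l between -0.73 and -0.29, while Cox5a and Ndufa4 lie above 0 in every class; with 1 library per genotype these differences have no replicate check.

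Counted by sign alone, 10 of 85 members were lower in all 5 classes (8.05% of all measured genes) and 25 higher in all 5 (7.26%). Of those higher, 14 were nuclear complex I genes of the 34 measured, among them Ndufa12, Ndufa13 and Ndufs4. Of those lower, 4 were mitochondrial (mt-Nd2, mt-Nd3, mt-Nd4l and mt-Nd4) and 4 of complex V. The classes of a library share its preparation, so 5 classes are not 5 replicates. TMM scaling moved all genes up by 0.02 in limbal, 0.04 in basal, 0.19 in wing, 0.14 in surface and 0.09 in stromal cells; averaged over classes mt-Nd3 then had -0.67 in place of -0.77, mt-Nd4l -0.37 in place of -0.47 and Ndufa1 -0.13 in place of -0.23.

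Other genes of the pathway, from lists chosen by function, were read the same way. Their counts stand against 7.49% of all measured genes higher and 6.29% lower in limbal cells, 15.4% and 12.8% in wing, 10.7% and 69.5% in surface and 24.4% and 30.8% in stromal cells. Of 8 subunits and partners outside the naming rule, all measured, 7 were past the fold lower in surface than in wing cells (medians -1.88 and -1.70), and 1 was lower in limbal cells. That one, Higd1a, a hypoxia-induced partner of complex IV, had 118 and 132 CPM in limbal, 181 and 200 CPM in basal and 352 and 419 CPM in stromal cells. Cycs, somatic cytochrome c, was slightly higher in limbal than in basal cells (0.35 and 0.34).

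Of 46 assembly factors 13 were measured, 10 of them lower in surface cells (medians -1.78 and -1.77). Wing cells had 3 higher than basal cells, Uqcc3 for complex III (1.04 and 0.78) and Coa3 (1.00 and 0.72) and Cox19 (0.73 and 0.87) for complex IV, and 0 lower. Stromal cells had 5 higher and 0 lower, and limbal cells 0 higher and 2 lower (Ndufaf3 and Sdhaf4).

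Of 77 genes of the mitochondrial ribosome, which translates only the mitochondrial messengers, 55 were measured and 50 were lower in surface cells, with medians of -2.73 and -2.24 that lie below those of the mitochondrial genes themselves. In limbal cells 1 was higher and 0 lower, in wing cells 2 and 2 and in stromal cells 8 and 2. Of 15 genes of mitochondrial DNA expression only Slirp and Ssbp1 were measured, both lower in surface cells (medians -2.26 and -2.79) and neither past the fold elsewhere.

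Of 16 genes of the tricarboxylic acid cycle and pyruvate dehydrogenase 13 were measured, and 11 were lower in surface cells (medians -2.19 and -2.20), 3 lower in stromal cells, 1 (Idh3a, -0.78 and -1.05) lower in wing cells and 0 past the fold in limbal cells. Of 6 carriers, 5 were lower in surface, 2 lower in wing, and 1 higher with 2 lower in stromal cells. The higher one was Slc25a4, the heart and muscle form of the ADP/ATP carrier, with 401 and 388 CPM in basal and 1872 and 1976 CPM in stromal cells (2.22 and 2.35), where Slc25a5, the common form, had 909 and 896 against 489 and 496 CPM (-0.89 and -0.85). The 2 forms thus went opposite ways.

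Of 6 regulators of biogenesis only Esrra was measured; it was higher in wing cells (0.70 and 0.59) and lower in stromal cells (-1.54 and -1.26), and not past the fold in surface or limbal cells. Of 8 mitophagy genes 4 were measured. Bnip3l and Bcl2l13 were lower in limbal cells (-0.84 and -0.73, and -0.79 and -0.59), Pink1 was higher in wing cells (0.81 and 0.75) and in stromal cells (31.4 and 33.3 CPM in basal, 160 and 159 CPM in stromal, 2.35 and 2.26), and Bcl2l13 and Phb2 were lower in surface cells. Bnip3l was level between wing and surface cells (0.02 and 0.03) and lower in stromal cells (-0.81 and -0.71).

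Between the libraries these lists mostly stayed under 1.25 times. Of 55 mitochondrial ribosome genes 27 were higher and 6 lower in heterozygote surface cells (median 0.29, against 28.2% and 21.9% of all measured genes). In basal cells 0 were past 1.25 times in either direction. Surface cells were few (51 and 114) and no counting intervals are given for these genes, so nothing was read from the surface counts. Assembly factors had 4 of 13 higher and 1 lower in limbal cells (8.53% and 8.09% of all measured genes), and 1 higher and 3 lower in surface cells. The tricarboxylic acid cycle list had 3 of 13 higher and 3 lower in surface cells, near the shares of all measured genes there. The regulator Esrra was past 1.25 times in 0 of 5 classes.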

How the data were processed

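Single-cell RNA sequencing counts of 2 libraries were used, 1 wild type and 1 Becn1 heterozygote. The authors deposited UMI counts per gene and barcode, whole numbers with no normalization, made with Cell Ranger 2.1.1 on mm10, per the submitters' processing notes. Annotation release, strand setting and cell calling were not given in the sources used here. Barcode and gene name tables were deposited beside the counts, and no tool ran on them before use.

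The gene members and lists were chosen with earlier results of these data known. Doublets were the top Scrublet scores (scanpy 1.11.5) at 0.8% per 1000 barcodes, 51 and 213 barcodes. Cells meeting the limbal and basal rules counted as limbal, those meeting the wing and surface rules as surface, and those meeting any other pair were left out (8 and 14), as were cells meeting none (304 and 721). Counts were summed per class and library, and ratios are log2 of CPM ratios with 0.5 added to each count. Intervals are exact Poisson for levels and conditional Clopper-Pearson for ratios, at 95%, and cover counting error only. PCR duplicates were already collapsed by UMI. With 1 library per genotype no test was run.

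Named genes were all mitochondrial members, in each nuclear complex the member of highest mean CPM and those with the highest and lowest ratio in each comparison, and members with tissue-specific paralogs. 1 result that the rule names is not reported here. Other genes were named after their values were seen, where they were past the fold or close to level. Positions came from GENCODE M21 (GRCm38), which held all 97 members. Exons of 33 members overlap those of another counted feature, 7 on the same strand and 27 on the other. Alternatives were doublet removal, overlapping classes, thresholds, depth, mitochondrial share, cell weights, filters, folds, TMM scaling (edgeR 4.0.16) and CPM without mitochondrial, ribosomal and rule genes. Motif letters for NRF1 and YY1 were chosen after counts with longer forms had been seen, so the motif shares are descriptions. Values were computed in Python 3.11.15 with scipy 1.17.1, numpy 2.4.6 and pandas 2.3.3.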

Additional observations from a re-analysis of the deposited data

Results flagged for a closer look

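Sdhc, a membrane anchor of complex II, differed between the libraries in opposite directions in 2 classes. The log2 ratio of heterozygote over wild type was 0.53 in surface cells (10.8 and 15.9 CPM, 95% interval -0.33 to 1.498) and -0.33 in limbal cells (39.3 and 31.2 CPM, -0.67 to -0.000159). The difference between the classes was not tested, and the surface interval includes 0.

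Ndufa4l2 went opposite ways between surface and wing cells, with log2 ratios of -2.34 (wild type) and 5.20 (heterozygote). The wild-type surface cells had 0 UMIs of it, and the heterozygote surface cells had 220 UMIs in 3 of 114 cells. Of these, 218 were in 1 cell with 38785 UMIs in all. Without that cell, an alternative added after seeing the data, the heterozygote surface level was 0.875 CPM in place of 94.6 CPM. The difference between the libraries was not tested.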

How the results depend on the processing

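No paired analysis was possible because each genotype has 1 library and nothing pairs cells, and no replicate could be left out. Over the 4 class comparisons and 5 genotype comparisons the counts of members past the fold moved by over 1.5 times as follows. Surface cells were the lowest class of both libraries in 5 of 6 gene groups, and in 0 with TMM scaling. TMM also gave 13 members higher and 10 lower in surface against wing cells, 23 lower in stromal cells, and between genotypes 2 higher in limbal, 4 higher and 3 lower in wing, 44 higher and 1 lower in surface and 1 higher in stromal cells. It turned the averaged surface ratios of the mitochondrial median (0.14), complex III (0.19), complex V (0.22), Atp5j2 (0.52), Sdhc (0.41) and Uqcrb (0.62) above 0, since it raises all surface ratios alike. CPM without mitochondrial, ribosomal and rule genes moved all surface ratios by -0.33 and -0.28 and all stromal ratios by -0.26 and -0.25. It gave 25 lower in stromal, 2 lower in wing and, between genotypes, 2 higher in limbal cells. Folds of 2 between classes and 1.5 between genotypes left 0 lower in wing, 4 higher and 3 lower in stromal cells, and between genotypes 0 higher and 1 lower in limbal, 1 higher and 1 lower in basal, 2 lower in wing, 7 higher and 1 lower in surface and 0 lower in stromal cells. With no filter on low genes there were 6 higher in limbal, 2 higher and 3 lower in wing, 5 higher in surface and 16 higher in stromal cells, and between genotypes 3 higher in limbal, 9 lower in basal, 2 higher and 12 lower in wing, 11 lower in surface and 1 higher and 8 lower in stromal cells. A minimum of 5 CPM gave 2 higher in limbal, 2 lower in wing and 8 lower in wing between genotypes. A minimum of 50 CPM gave, between genotypes, 2 lower in limbal, 1 lower in basal and 3 lower in wing cells. Cells of at least 10000 UMIs gave, between genotypes, 2 higher and 2 lower in limbal and 1 higher in stromal cells. Counting cells in both classes gave 2 higher in wing and 0 higher in limbal cells between genotypes. Thresholds 1.5 times higher gave 2 higher in wing cells, and 1.5 times lower gave 2 higher and 2 lower in wing and 11 higher in surface cells between genotypes. Weighting cells equally gave 2 higher in wing cells and 1 higher in basal cells between genotypes. Apart from these, 218 of the alternative counts kept within 1.5 times. Besides the counts, 125 ratios and medians were followed. Under TMM scaling 65 of them moved by more than their counting error or their spread between libraries or classes. Another 6, which were past the fold, changed sign. CPM without mitochondrial, ribosomal and rule genes moved 70 of the 125 by the same measure. Surface cells are few (51 and 114), which limits the genotype counts there; the cause of other moves was not tested.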

Other observations

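Within the stroma, Ndufa4l2 was uneven between cells. Cells with 3 or more of its UMIs (214 wild-type and 416 heterozygote cells) held 5073 and 4043 CPM of Kera, a keratocyte proteoglycan, and cells with none (219 and 610) held 2623 and 2509 CPM. Fgf21, a secreted growth factor, had 835 and 440 CPM in the former and 110 and 221 CPM in the latter, and Ndufa4 362 and 427 against 430 and 483 CPM. The division is a range and not a cell type, cells with 1 or 2 UMIs lie near it, and cells above it were deeper (median 12209 and 8636 UMIs against 10922 and 7745). The genes set beside it were chosen after their values were seen.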
